A study of Homo sapiens with 6 samples.

Results

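The genes described here are 127 zinc finger genes on human chromosome 19 that were transcribed in MM.1S, a human line grown from a multiple myeloma, that is, from malignant plasma cells. A row of the expression table belonged to the set when its symbol was ZNF followed by a number, when its symbol had a single position on chromosome 19 in GENCODE 29 (GRCh38), and when its mean over the 6 libraries was at least 1 FPKM (fragments counted per kilobase of gene and corrected for library size). The table held 12760 genes, of which 11276 reached that mean and were tested. Of 370 rows named ZNF with a number, 170 lay on chromosome 19, and 127 of those reached 1 FPKM, 39 on the short arm (19p) and 88 on the long arm (19q). GENCODE 29 annotates 240 protein-coding genes with such names on the chromosome. Of these, 43 were in the table below 1 FPKM and 70 were not in it.

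Total RNA of 2 groups of 3 libraries was compared. LenR cells had been kept in lenalidomide, an immunomodulatory drug used against myeloma, starting at 10 nM and raised 10-fold each month for 3 months. WT cells had been kept alongside in DMSO, the solvent, and both groups carried the same unmodified genotype. The labels call the 3 libraries of a group biological replicates without saying whether they came from separately selected cultures, so p-values here measure only how these libraries spread. They also do not say whether the drug was present at harvest. The libraries are named WT1 to WT3 and LenR1 to LenR3, as in the table.

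Most of these genes encode transcription factors with a row of C2H2 zinc fingers, loops in which paired cysteines and histidines hold a zinc ion and side chains between them read DNA bases. Many also carry a KRAB domain, which binds the corepressor TRIM28 (KAP1). TRIM28 in turn brings SETDB1, an enzyme that methylates histone H3 on lysine 9, so that the bound DNA, often a retrotransposon, is packed into silent chromatin. The genes arose by tandem duplication and sit in clusters along chromosome 19, where neighbours share much of their sequence.

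That shared ancestry can be read in the sequences before the genes. The 250 bases before the annotated start of 6 genes that passed the test are printed, 5′ to 3′ on the strand of the gene. They come from RefSeq on GRCh38.p14 and were chosen to show genes of one cluster that moved in opposite directions. Every match, on either strand, to the ETS core CCGGAA, the CCAAT box or the GC box GGGCGG is in capitals. ZNF208 (chr19:22010944-22011193, minus strand) and ZNF91 (chr19:23395472-23395721, minus strand) were higher in LenR. ZNF431 (chr19:21141790-21142039, plus strand) and ZNF675 (chr19:23687213-23687462, minus strand), from the same cluster, were lower. ZNF845 (chr19:53333499-53333748, plus strand) was higher and ZNF808 (chr19:52527418-52527667, plus strand), from a cluster on the other arm, was lower. ZNF208, ZNF91 and ZNF845 averaged under 1 FPKM in WT and entered the set only through their LenR level. The filter thus fixed their direction, and with it one side of each contrast.

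ZNF208: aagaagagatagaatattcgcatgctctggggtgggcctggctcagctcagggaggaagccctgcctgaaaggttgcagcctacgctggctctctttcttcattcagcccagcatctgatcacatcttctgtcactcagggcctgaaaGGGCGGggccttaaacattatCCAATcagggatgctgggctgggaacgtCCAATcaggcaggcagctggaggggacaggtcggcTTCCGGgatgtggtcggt
ZNF91: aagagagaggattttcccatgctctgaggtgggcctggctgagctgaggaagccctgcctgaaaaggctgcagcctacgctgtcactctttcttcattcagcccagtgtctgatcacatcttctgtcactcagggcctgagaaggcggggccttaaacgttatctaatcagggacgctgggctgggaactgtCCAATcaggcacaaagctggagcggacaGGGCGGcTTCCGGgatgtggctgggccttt
ZNF431: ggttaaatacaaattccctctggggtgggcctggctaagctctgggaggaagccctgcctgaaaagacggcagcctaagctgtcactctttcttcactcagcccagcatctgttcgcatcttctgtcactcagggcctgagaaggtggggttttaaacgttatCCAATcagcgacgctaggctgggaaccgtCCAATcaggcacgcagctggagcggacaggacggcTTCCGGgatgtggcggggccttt
ZNF675: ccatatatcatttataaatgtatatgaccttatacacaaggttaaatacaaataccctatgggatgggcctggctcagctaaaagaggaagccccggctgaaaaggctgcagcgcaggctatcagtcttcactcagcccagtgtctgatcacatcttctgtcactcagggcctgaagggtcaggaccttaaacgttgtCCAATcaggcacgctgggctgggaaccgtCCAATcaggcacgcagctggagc
ZNF845: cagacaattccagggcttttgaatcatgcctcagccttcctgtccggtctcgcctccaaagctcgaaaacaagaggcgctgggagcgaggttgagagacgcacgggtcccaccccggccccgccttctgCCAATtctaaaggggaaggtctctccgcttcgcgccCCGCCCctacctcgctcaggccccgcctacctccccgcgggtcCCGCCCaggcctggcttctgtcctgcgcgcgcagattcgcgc
ZNF808: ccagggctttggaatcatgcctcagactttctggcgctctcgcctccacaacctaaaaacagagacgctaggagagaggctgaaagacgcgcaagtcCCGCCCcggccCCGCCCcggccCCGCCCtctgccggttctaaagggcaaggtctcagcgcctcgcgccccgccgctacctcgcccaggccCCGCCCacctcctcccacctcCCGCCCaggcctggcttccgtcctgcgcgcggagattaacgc

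The upstream stretches of ZNF208 and ZNF91 were identical at 86.4% of aligned columns. ZNF431, which moved the other way, shared 82.9% with ZNF208 and 84.7% with ZNF91. For ZNF675, also lower and from that cluster, the shares were 65.5% with ZNF208, 62.8% with ZNF91 and 62.1% with ZNF431. Its printed stretch is shifted, beginning farther upstream in the shared sequence and ending before the CCGGAA match of the other genes. The unmatched ends count as aligned columns and lower these shares, which therefore do not show a more divergent sequence. Identity over the common part alone was not computed. The stretches of ZNF845 and ZNF808 were identical at 78.2% of columns and moved in opposite directions, while pairs taken across the clusters shared between 47.5% and 52.2%. A single promoter entry was found for 99 of the 127 genes. CCGGAA stood in 38.4% of those stretches, against 29.4% of 6059 stretches of the genes tested and 14.5% of all 35116 in the table. CCAAT stood in 52.5% against 36.9% of the genes tested, and GGGCGG in 67.7% against 70.8%. Among the 14 genes with an entry that passed the test, CCGGAA and CCAAT each stood in 50% and GGGCGG in 64.3%. These are matches of letters, not measured binding.

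The finger array itself differs greatly in length between these genes. In the longest coding sequence of each gene, the codon pattern of a C2H2 finger was counted, and the median was 11 fingers. ZNF208 had the most, 36, and ZNF91 had 31. ZNF414 and ZNF428 had 1 each. One finger with its linker from each of the longest arrays is printed, with the cysteine and histidine codons in capitals (coding bases 691 to 774 of ZNF208-201 and 634 to 717 of ZNF91-201, GENCODE 29).

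ZNF208: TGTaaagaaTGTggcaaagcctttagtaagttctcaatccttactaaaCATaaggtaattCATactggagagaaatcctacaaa
ZNF91: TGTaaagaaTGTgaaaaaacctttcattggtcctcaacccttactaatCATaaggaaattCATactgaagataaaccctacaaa

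The number of fingers had no visible relation to the change in LenR (Spearman's rho -0.06 over 127 genes, which share libraries and sequence). The genes that passed the test had a median of 12 fingers and the others 11. Because such repeats are shared, reads may fit several genes. With every 64-base window of a gene's longest transcript searched in the transcripts of all other genes, 48 genes had no shared window and 19 had over 10%. In 4 genes more than 50% of windows were shared, and these were ZNF468, ZNF709, ZNF564 and ZNF490. Among the genes that passed the test, ZNF417 had the largest share, 34.4%.

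The zinc finger genes were weakly transcribed. Their median level was 3.38 FPKM, against 12.4 over all genes tested and 5.80 over 170 ZNF genes on other chromosomes. Levels under 5 FPKM were found for 70.1% of them, against 26.3% of all genes tested, and 13 of the 127 reached 10 FPKM. The highest was ZNF146 (OZF), which is made of fingers with no KRAB domain. It gave 24.7, 25.3 and 25.4 FPKM in WT and 22.7, 24.1 and 25.7 in LenR, so the groups overlapped (adjusted p = 0.649, limma). Next came ZNF296, ZNF266, ZNF787, ZNF428 and ZNF580, with means between 16.4 and 21.8 FPKM, and none of them passed the test. At the lower end, ZNF404 (1.04), ZNF845 (1.04) and ZNF527 (1.12 FPKM) lay just inside the threshold, and ZNF726 (0.946), ZNF285 (0.911) and ZNF30 (0.906 FPKM) lay just outside. Reads behind a value were recovered from the steps of the FPKM values, and they ran from 11 to 1731 per gene and library in the set, with a median of 180 against 651.5 over all genes tested.

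**Figure D1:**
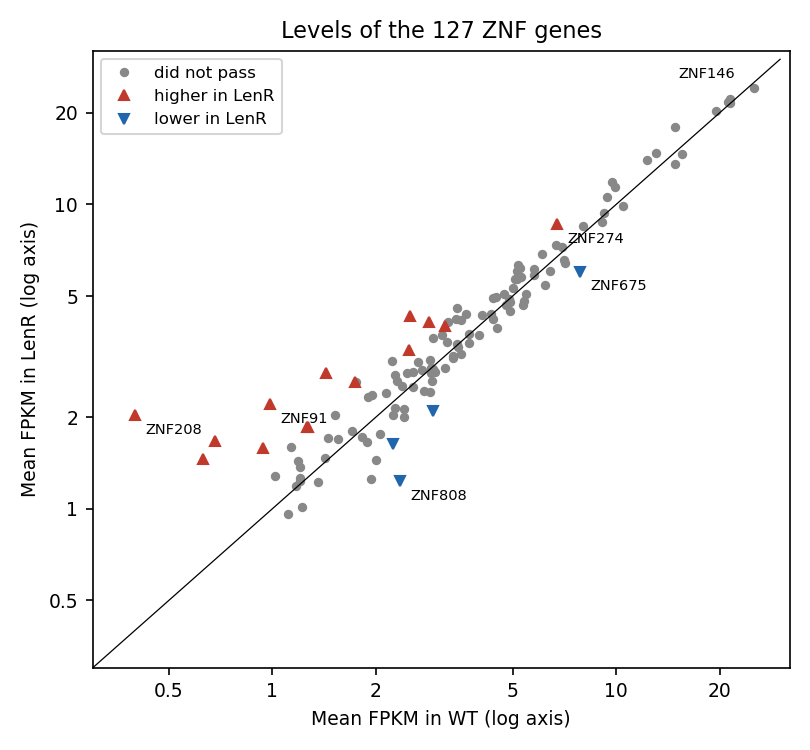
Mean FPKM in WT (x, log axis) against mean FPKM in LenR (y, log axis) for the 127 zinc finger genes, each point a gene and the line marking equal levels. Genes above 10 FPKM, such as ZNF146, lie near the line, and the points farthest from it, ZNF208 above and ZNF808 below, lie at low levels.

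Facts of the whole experiment bear on these values. Recovered reads per library ran from 14500688 to 17388610. The first principal component (58.1% of the variance) separated WT from LenR, and the second (26.8%) set WT3 and LenR2 apart from the rest. WT replicates 1 and 2 differed by 1.83 times the squared deviation that read sampling gives over all genes but by 1.03 times over the 127 genes, so over this set they differed by about the sampling noise. Plasma cell markers summed to between 4040 and 4650 FPKM in WT and between 4725 and 5657 in LenR, with 10 of 11 in the table. None of 4 B cell markers or 6 myeloid markers was in the table, 2 of 7 T and NK markers were (CD3E and GNLY, summing to 3.07 to 4.11 FPKM), and 1 of 6 epithelial and stromal markers was, below 1 FPKM. In bulk RNA, a change in the share of cells that express a gene and a change in RNA per cell cannot be told apart.

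Between WT and LenR, 18 of the 127 zinc finger genes passed the test (14.2%; limma on log2(FPKM + 1), Benjamini-Hochberg adjusted p under 0.05 over 11276 genes), against 15.1% of all genes tested. Of these, 14 were higher in LenR and 4 were lower, where over all genes 8.57% were higher and 6.57% lower. An unadjusted p under 0.05 was reached by 37 of the 127 (29.1%), against 28.7% of all genes tested. The groups did not overlap in 43 genes (33.9%), 30 higher and 13 lower, against 34.5% of all genes tested (18% higher, 16.5% lower). The counts moved with single libraries: without WT1 the set had 9 calls, 7 higher and 2 lower, and without WT2 it had 10, 8 higher and 2 lower. Without both WT3 and LenR2, 13 were higher and 5 lower. The filter matters to the split, because ZNF208, ZNF91, ZNF506, ZNF845 and ZNF155 averaged under 1 FPKM in WT and entered the set only through their LenR level. Among the 13 genes that passed the test with at least 1 FPKM in WT, 9 were higher and 4 were lower.

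As a whole, the 127 genes shifted little. Their median log2 fold change (LenR over WT on the log2(FPKM + 1) scale) was 0.05, with 78 above 0 and 49 below, and the median over all genes tested was -0.002. On 19q the median was 0.06 (56 above 0, 32 below) and on 19p it was 0.006 (22 above, 17 below). The other genes of chromosome 19 had medians of 0.016 on 19q and -0.001 on 19p, and ZNF genes elsewhere had 0.019. In 93 of the 127 the change was within 0.2 on this log2 scale, and only ZNF208 exceeded 1. The scale understates changes of weak genes. By ratio of means, LenR over WT, ZNF208 stood at 5.10, ZNF506 at 2.45, ZNF845 at 2.32 and ZNF91 at 2.25. All of these entered the set only through their LenR level. Summed over the 19q genes, the level was 412 ± 10.1 FPKM in WT and 438 ± 21.1 in LenR (SD, n = 3 each), and LenR3, at 413.7, lay below WT3, at 423.2. Summed over the 19p genes it was 186 ± 2.22 in WT and 192 ± 8 in LenR. The 19p median took opposite signs under some settings, at -0.008 after quantile normalization, and it was 0.068 without WT2.

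**Figure D2:**
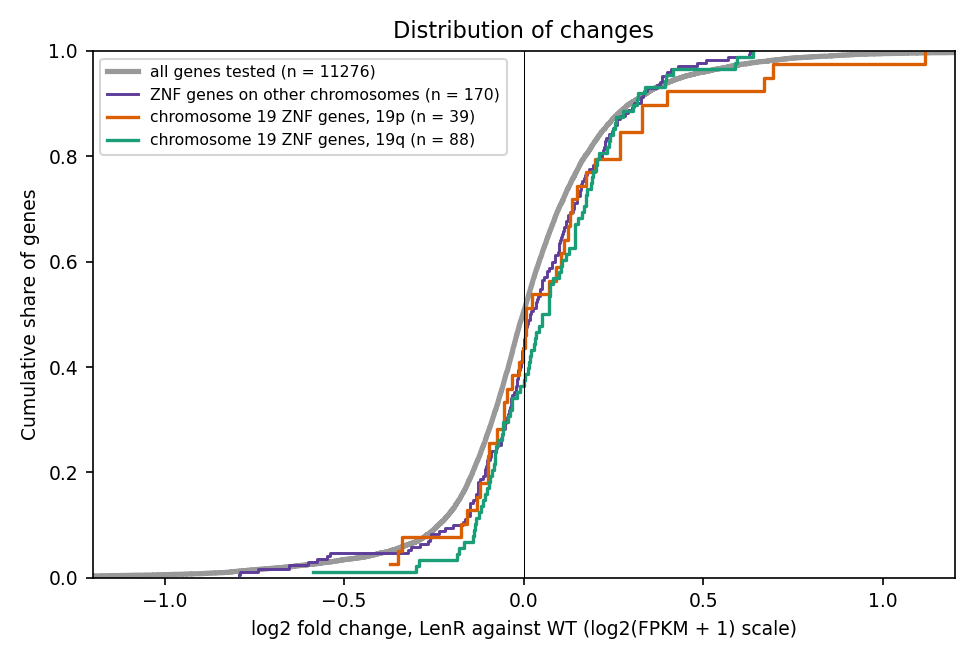
Cumulative share of genes (y) by log2 fold change on the log2(FPKM + 1) scale (x) for all genes tested, ZNF genes on other chromosomes, and the chromosome 19 zinc finger genes of each arm. The 19q curve lies a little to the right of the curve of all genes near 0 (medians 0.06 and -0.002), and the 19p curve crosses 0 close to its middle (median 0.006).

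The genes lie in runs on both arms. With neighbouring annotated starts within 500 kb taken as one run, 8 clusters held at least 5 of the 127 genes. The cluster nearest the centromere on 19p (chr19:19668796-24129961) had the lowest median level of the 8. It holds 37 annotated genes, of which 13 were in the set, at a median of 1.77 FPKM. Its median log2 fold change was 0.20, 4 genes were higher and 2 lower, and 10 of the 13 reached an unadjusted p under 0.05 (limma). Of all genes tested, 15.1% passed and 28.7% reached that unadjusted p, shares to be set beside the counts of every cluster. Of the 6 calls, 3 were of genes that entered the set only through their LenR level (ZNF208, ZNF91 and ZNF506). These 3 also count among the 10 and in the median.

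ZNF208 showed the largest change of the set. It gave 0.414, 0.398 and 0.384 FPKM in WT and 1.91, 2.18 and 2.01 in LenR, so every LenR library lay far above every WT library. The ratio of means was 5.10 and the log2 change 1.12 (SE 0.07, adjusted p = 8.79e-05, limma). An opposite-strand pseudogene covers 8.81% of its exon bases. ZNF91, which represses SVA retrotransposons in primates, rose from 0.966, 0.857 and 1.12 FPKM to 2.04, 2.07 and 2.52, and the groups did not overlap. Its ratio was 2.25 and its log2 change 0.69 (SE 0.09, adjusted p = 0.00162, limma). ZNF506 gave 0.789, 0.798 and 0.453 FPKM in WT and 1.45, 1.94 and 1.62 in LenR (log2 change 0.67, SE 0.11, adjusted p = 0.00552, limma). WT3 was the lowest of its 6 values, and the fewest reads behind any of them were 11. These 3 genes passed in all 22 alternatives run for them. As they entered the set only through LenR, they had to differ, and the alternatives add no separate support.

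Others in the same cluster fell. ZNF675 (TIZ), which binds the signalling adaptor TRAF6, gave 7.90, 8 and 7.68 FPKM in WT and 5.75, 6.00 and 6.29 in LenR. It was the most abundant of the 4 genes that fell, with no overlap between groups (log2 change -0.34, SE 0.06, adjusted p = 0.00851, limma). ZNF431 gave 3.14, 3.07 and 2.60 FPKM in WT and 1.88, 2.33 and 2.07 in LenR (log2 change -0.35, adjusted p = 0.0332, limma). That call ended without WT1 (adjusted p = 0.127), WT2 (0.119), LenR1 (0.121) or LenR3 (0.0726). ZNF714, 16.8 kb from ZNF431, moved the other way, from 1.25, 1.38 and 1.18 FPKM to 1.93, 1.83 and 1.79 (log2 change 0.33, adjusted p = 0.0162, limma), a call that ended without WT1 (0.0695) or LenR1 (0.0669). ZNF708 had the lowest log2 fold change of the cluster, -0.37, but an adjusted p of 0.0684 (limma). Inside the cluster, ZNF91 and ZNF675, both on the minus strand and 130 kb apart, changed in opposite directions.

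The cluster on 19q at chr19:51571298-53580269 held 18 of 39 annotated genes, with a median log2 fold change of 0.08. It contained both the gene with the lowest value of the whole set and a pair of genes that rose. ZNF808, which represses MER11 retroviral elements and whose loss causes pancreatic agenesis, gave 2.31, 2.22 and 2.54 FPKM in WT and 1.18, 1.30 and 1.23 in LenR. The LenR libraries all lay at roughly the same reduced level, with a WT to LenR ratio of 1.91 and a log2 change of -0.59 (SE 0.07, adjusted p = 0.00114, limma). Of its exon bases, 14.2% are shared with ZNF701 on the same strand, and 15% of its windows occur in other genes. ZNF83, 29.6 kb from it, gave 2.74, 2.35 and 2.47 FPKM in WT and 3.92, 4.11 and 4.88 in LenR (log2 change 0.59, SE 0.09, adjusted p = 0.00328, limma). ZNF845 rose from 0.674, 0.658 and 0.556 FPKM to 1.37, 1.52 and 1.49 (log2 change 0.59, SE 0.07, adjusted p = 0.00115, limma). The groups did not overlap in either gene, and all 3 calls held in the 22 alternatives run. ZNF845 averaged under 1 FPKM in WT and entered the set only through LenR, so it had to differ.

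In the cluster at chr19:43525497-44500524, 14 of 23 annotated genes were in the set, the median log2 fold change was 0.11, 3 genes rose and none fell. Over all genes tested 15.1% passed, 8.57% higher and 6.57% lower. ZNF180 gave 1.44, 1.45 and 1.4 FPKM in WT and 2.55, 2.63 and 3.22 in LenR, a ratio of 1.96 with WT values close together (log2 change 0.64, SE 0.08, adjusted p = 0.00176, limma). ZNF155 gave 0.909, 0.898 and 1.02 FPKM in WT and 1.63, 1.45 and 1.68 in LenR (log2 change 0.41, SE 0.07, adjusted p = 0.00664, limma). It averaged under 1 FPKM in WT and entered the set only through LenR, so it had to differ. An antisense RNA covers 41.4% of the exon bases of ZNF155. The strand setting of the counting is not given in the sources used here, so reads over those bases cannot be told apart. ZNF222, 27 kb away, gave 1.37, 1.09 and 1.32 FPKM in WT and 1.57, 2.10 and 1.90 in LenR (log2 change 0.34, adjusted p = 0.0487, limma). It lay closest to the threshold, and its call ended without any 1 library except LenR1, with adjusted p of 0.0944 without WT1, 0.167 without WT2, 0.0762 without WT3, 0.116 without LenR2 and 0.104 without LenR3. The lowest log2 fold change of the cluster, -0.14 for ZNF235, did not pass (adjusted p = 0.373, limma).

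The cluster nearest the end of 19q (chr19:57191500-58481230) held the most genes, 29 of 41 annotated, with a median log2 fold change of 0.05, 4 higher and 1 lower. Its most abundant gene that changed was ZNF274, a KRAB protein that brings TRIM28 and SETDB1 to the 3′ ends of zinc finger genes. ZNF274 gave 6.14, 6.63 and 7.37 FPKM in WT and 8.45, 9.18 and 8.22 in LenR, with no overlap (ratio 1.28, log2 fold change 0.32, SE 0.08, adjusted p = 0.0331, limma). That call ended without WT1 (adjusted p = 0.136), WT2 (0.113), LenR1 (0.0935) or LenR2 (0.084). ZNF329, 27.9 kb from it, gave 2.49, 2.51 and 2.49 FPKM in WT and 3.28, 3.24 and 3.43 in LenR, with no overlap between groups (log2 change 0.30, adjusted p = 0.0129, limma). It lost its call without WT1 (0.0613) or WT2 (0.0563).

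ZNF530 and ZNF134, which are 1.51 kb apart from the end of one to the start of the next, both rose. ZNF530 gave 2.96, 2.77 and 2.86 FPKM in WT and 4.68, 3.51 and 4.13 in LenR (log2 change 0.40, adjusted p = 0.0242, limma), and its call ended without WT1 (0.0669), WT2 (0.0871), WT3 (0.0524), LenR1 (0.0753) or LenR3 (0.0579). ZNF134 gave 3.32, 3.03 and 3.20 FPKM in WT and 3.97, 4.21 and 3.74 in LenR (log2 change 0.25, adjusted p = 0.0456, limma). Its call ended without WT1 (0.107), WT2 (0.174), WT3 (0.0837), LenR1 (0.122) or LenR2 (0.118). ZNF417, which represses HERV-K elements, was the one gene of the cluster that fell, from 2.34, 2.31 and 2.08 FPKM to 1.59, 1.69 and 1.62 (log2 change -0.30, adjusted p = 0.0217, limma). Its groups did not overlap, and its call ended without WT1 (0.1), WT2 (0.0933), LenR1 (0.0766) or LenR3 (0.0535).

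The remaining clusters were quieter. On 19p, the cluster at chr19:8509678-9793180 held 9 genes with a median of 0.002 and 1 call. That gene, ZNF426, gave 1.74, 1.51 and 1.96 FPKM in WT and 2.40, 2.65 and 2.78 in LenR (log2 change 0.40, adjusted p = 0.0162, limma), and its call ended without WT1 (0.0584) or WT2 (0.0649). The 14 genes at chr19:11483427-12640098 had a median of -0.004 and a range from -0.16 (ZNF44) to 0.17 (ZNF791). By limma none of them passed, 1 had an unadjusted p under 0.05, and voom on the recovered reads also called 0.

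On 19q, the 12 genes at chr19:55476332-56671783 had a median of 0.14, with 8 above 0 and no call (2 at an unadjusted p under 0.05 by limma, 0 by voom). They ran from -0.09 for ZNF444 to 0.26 for ZNF581 (adjusted p = 0.188, limma). The exons of ZNF581 overlap those of ZNF580 on the same strand over 407 bases, 23.4% of its exon bases. Reads over those bases cannot be told apart. The 7 genes at chr19:36182060-37817300 had a median of 0.08 and no call (4 at an unadjusted p under 0.05 by limma, 0 by voom), between ZNF420 at -0.18 (adjusted p = 0.0972, limma) and ZNF383 at 0.39 (0.0991).

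**Figure D3:**
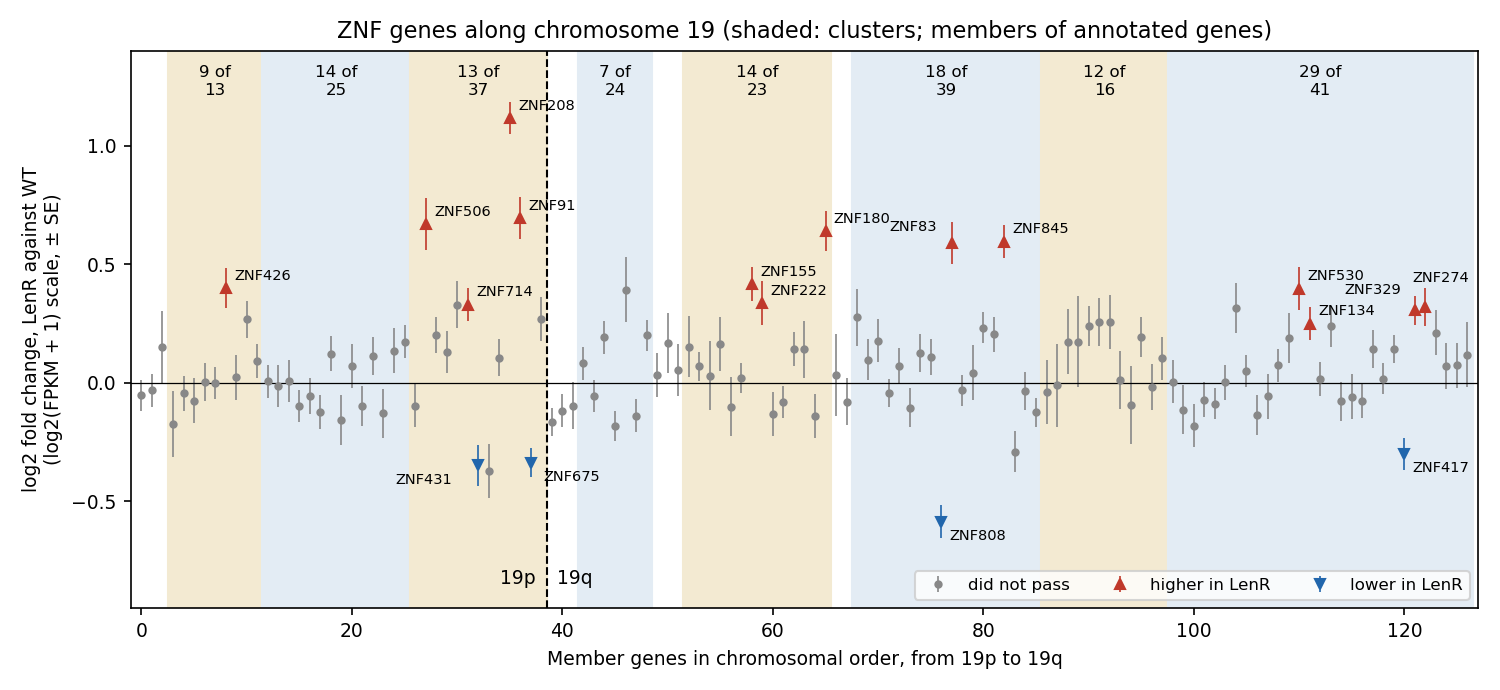
Log2 fold change of each of the 127 genes (y, log2(FPKM + 1) scale, bars are limma's SE) in chromosomal order from 19p to 19q (x); shaded bands are the 8 clusters, each with its number of genes in the set out of those annotated. Triangles mark the 14 genes that were higher and the 4 that were lower, and in 8 adjacent pairs both genes passed.

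Neighbours did not move as one. Pairs were consecutive genes of the set, passing over genes outside it, so some lay far apart (ZNF208 and ZNF91 by 1294 kb). Of 111 such adjacent pairs within clusters, 58 (52.3%) had changes of the same sign. Whether that share differs from that of unrelated genes was not tested. In 8 pairs both genes passed the test, 4 pairs in the same direction and 4 in opposite directions. The same-direction pairs were ZNF208 with ZNF91, ZNF155 with ZNF222, ZNF530 with ZNF134 and ZNF329 with ZNF274. ZNF208, ZNF91 and ZNF155 entered the set only through LenR, so the filter fixed their direction. The pair of ZNF208 and ZNF91 therefore had to move the same way. The opposite pairs were ZNF714 with ZNF431, ZNF91 with ZNF675, ZNF808 with ZNF83 and ZNF417 with ZNF329.

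**Figure D4:**
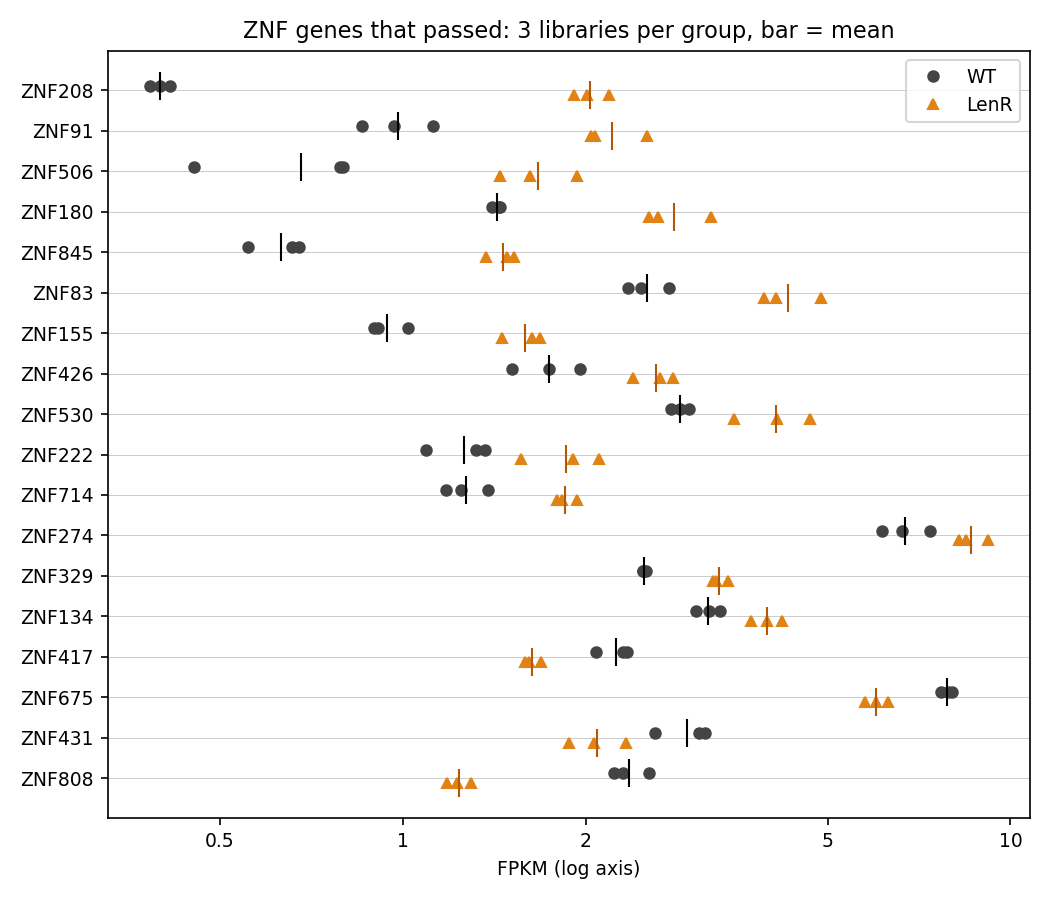
FPKM in each library (x, log axis) for the 18 genes that passed the test (y, ordered by log2 fold change), with circles for WT, triangles for LenR and vertical bars for the mean of 3 libraries. The groups do not overlap in any row, and the widest gap is that of ZNF208, between 0.414 and 1.91 FPKM.

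Of the 18 calls, 9 held in all 6 fits that left out 1 library (ZNF155, ZNF180, ZNF208, ZNF506, ZNF675, ZNF808, ZNF83, ZNF845 and ZNF91). Of these 9, 5 averaged under 1 FPKM in WT and passed the filter only through LenR, so they had to differ. Among the 13 calls of genes at 1 FPKM or more in WT, 4 held in all 6 fits. No change of direction was found for any of the 18 under the alternatives run. By level, only 2 of the 18, ZNF274 and ZNF675, were among the 38 genes of at least 5 FPKM.

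The 43 zinc finger genes of the chromosome that averaged under 1 FPKM were tested in a fit of all 12760 rows, an alternative to the main filter, and their pattern was looked at after its values were seen. In that fit 16.3% of all genes passed, 9.04% higher and 7.29% lower. Of the 43 genes, 22 passed, 18 higher in LenR and 4 lower (51.2%). Of all 1484 genes under 1 FPKM 23.0% passed, 176 higher and 166 lower, and of the 62 other genes of chromosome 19 under 1 FPKM 22 passed (35.5%), 7 higher and 15 lower. Of 27 ZNF genes under 1 FPKM on other chromosomes, 1 was higher and 3 were lower. Every row of the table has at least 10 reads in at least 3 libraries, so a weak gene can be listed through a single group. Genes listed that way had to differ. Among the 18, ZNF829, ZNF568, ZNF320, ZNF816, ZNF813 and ZNF606 had under 10 reads in all 3 WT libraries. ZNF433, ZNF566 and ZNF888 reached 10 reads in 3 libraries only with LenR. The listing thus fixed these calls in part, and the 51.2% includes them. The 22 calls came to 19 without WT2 (16 higher, 3 lower) and to 18 without LenR1 (16 higher, 2 lower), the lowest counts among the alternatives run.

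Of the 18 weak genes that were higher, 8 lay in the 19q cluster at chr19:36182060-37817300, in which none of the 7 stronger genes passed. They were 8 of 10 weak genes there: ZNF566, ZNF529, ZNF850, ZNF345, ZNF829, ZNF568, ZNF569 and ZNF573. Of all genes under 1 FPKM, 23.0% passed in that fit. ZNF566, ZNF829 and ZNF568 reached the table's read minimum only with LenR, so the listing fixed their calls in part. ZNF829 gave 0.0109, 0.0575 and 0.0391 FPKM in WT (1 to 5 reads) and 0.615, 0.469 and 0.501 in LenR (39 to 47 reads). ZNF569 gave 0.239, 0.253 and 0.287 FPKM in WT and 0.829, 0.762 and 0.902 in LenR (log2 change 0.54, SE 0.05, adjusted p = 0.000509, limma over all rows). ZNF573 lost its call without WT1 (adjusted p = 0.0943), WT3 (0.0729) or LenR1 (0.0738), and ZNF345 without WT1 (0.0563) or WT2 (0.0536).

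The cluster at chr19:51571298-53580269 held 4 more that were higher, ZNF320, ZNF888, ZNF816 and ZNF813. All 4 reached the table's read minimum only with LenR, so the listing fixed these calls in part. ZNF320 went from 0.0371, 0.0294 and 0.0223 FPKM (2 to 4 reads per library) to 1.46, 1.25 and 1.65 (122 to 177 reads), with a log2 change of 1.25 (SE 0.07, adjusted p = 5.31e-05, limma over all rows). Its exons overlap those of ZNF468 on the same strand over 6021 bases. ZNF468 itself gave 4.04, 3.43 and 3.5 FPKM in WT and 4.18, 4.51 and 4.39 in LenR, a log2 fold change of 0.20 that did not pass (adjusted p = 0.111, limma). ZNF175, in the same cluster, was lower, from 0.873, 0.733 and 0.723 FPKM to 0.181, 0.2 and 0.181 (log2 change -0.58, SE 0.05, adjusted p = 0.000424, limma over all rows). The others that were lower were ZNF30, ZNF792 and ZNF544. ZNF30 lost its call without LenR1 (0.0536), and ZNF792 without any 1 library but WT1, with adjusted p of 0.129 without WT2, 0.114 without WT3, 0.137 without LenR1, 0.115 without LenR2 and 0.0514 without LenR3.

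**Figure D5:**
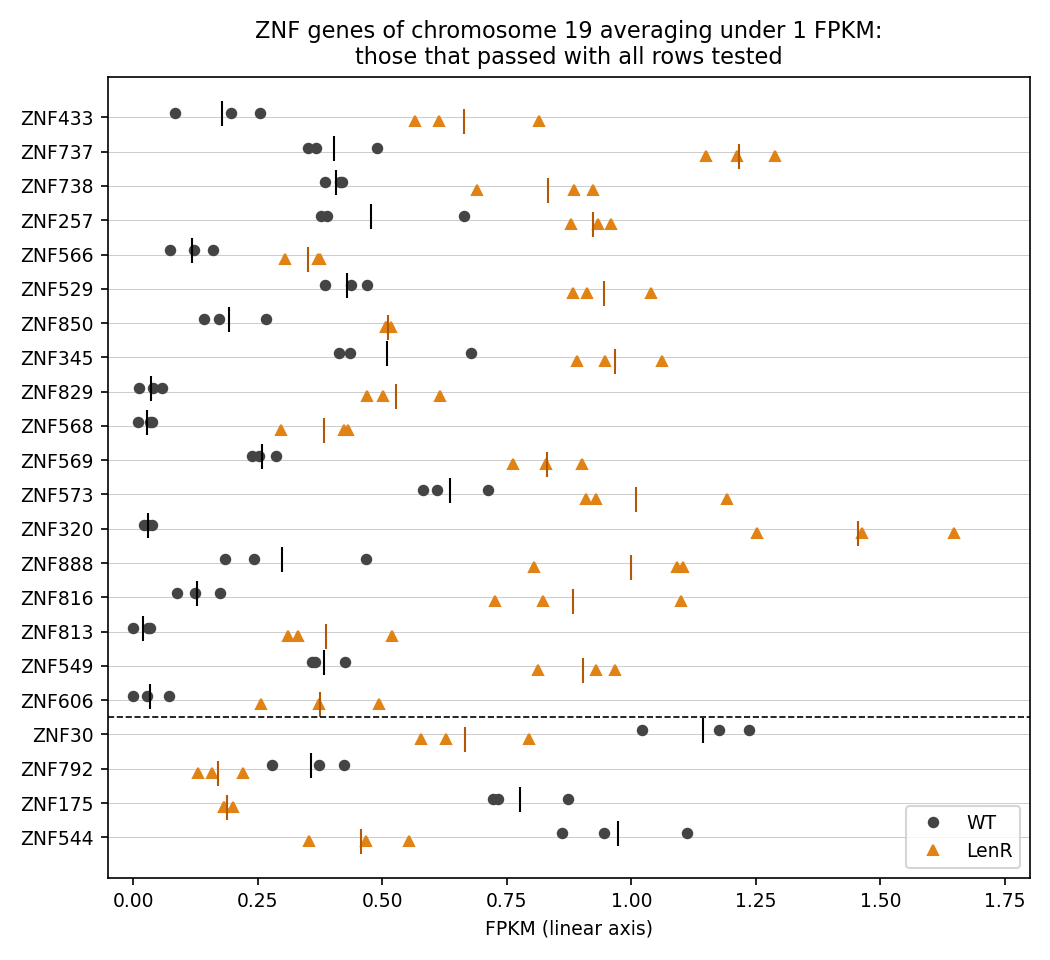
FPKM in each library (x, linear axis) for the 22 zinc finger genes of chromosome 19 that averaged under 1 FPKM and passed the test over all rows, in chromosomal order within each direction, with circles for WT, triangles for LenR and bars for means of 3 libraries. The 18 genes above the dashed line were higher in LenR, several from near 0 in WT, and the 4 below it were lower.

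The partners through which KRAB zinc finger proteins act were read from a list of 44 genes, of which 41 were tested. The list also held ZNF274 and ZNF91, zinc finger genes of the set and not partners. All counts of cofactors include both. Of these, 7 passed (17.1%, against 15.1% of all genes tested) and 34 did not. The 2 that were higher are ZNF274 and ZNF91, the latter in the set only through LenR. The 17.1% is therefore not a share of partners alone. Among the partners themselves, 5 were lower and none was higher. Their own share was not computed, and over all genes tested 15.1% passed, 8.57% higher and 6.57% lower. The median log2 fold change of the 41 genes was -0.05, with 15 above 0 and 26 below. TRIM28, the corepressor, gave 152, 157 and 191 FPKM in WT and 160, 169 and 142 in LenR (adjusted p = 0.715, limma). SETDB1 gave 23.5, 24.1 and 26.1 FPKM in WT and 24.2, 26.7 and 24.4 in LenR (adjusted p = 0.836, limma), and both pairs of groups overlapped.

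CHD3, a nucleosome remodeller of the NuRD complex, fell from 3.89, 3.96 and 4.36 FPKM to 1.74, 1.48 and 1.19, the largest change in the list (log2 change -1.04, SE 0.09, adjusted p = 0.000375, limma). CBX3 (HP1 gamma), which binds methylated lysine 9, gave 116, 117 and 89.2 FPKM in WT and 63.1, 52.4 and 73.5 in LenR (log2 change -0.76, SE 0.15, adjusted p = 0.0119, limma). That call ended without WT1 (adjusted p = 0.0501) or LenR1 (0.0573). HELLS and CDCA7, partners in a remodelling complex that acts in DNA methylation, and HDAC1, a histone deacetylase, had log2 fold changes of -0.34, -0.28 and -0.26 (adjusted p = 0.04, 0.0345 and 0.0309, limma). The HELLS call ended without any 1 library except LenR3 (adjusted p from 0.0631 to 0.142). The CDCA7 call likewise held only without LenR3 (0.0614 to 0.136), and the HDAC1 call only without WT3 (0.0543 to 0.153).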

How the data were processed

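MM.1S total RNA was sequenced in 6 libraries, 3 WT and 3 LenR, with a VAHTS universal RNA-seq kit per the labels' protocols. The authors deposited one table of FPKM values. Per the submitters' processing notes, the build was hg38. The authors' tools there, with no role named, were HISAT2 2.2.1, edgeR 3.40.2, featureCounts 2.0.3 and FastQC 0.11.9. How the authors annotated, stranded and filtered genes is not given in the sources used here. Columns were matched to samples by the names in the sample descriptions.

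Whole reads were recovered from the FPKM steps for all 12760 genes (within 0.01 of a read, 125 after a common factor). They gave 14500688 to 17388610 reads per library.

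Tests used limma 3.58.1 in R 4.3.3 on log2(FPKM + 1) with group as the only term, an empirical Bayes trend, two-sided p-values and Benjamini-Hochberg adjustment over the 11276 genes averaging 1 FPKM or more. A gene passed at an adjusted p under 0.05. A fold change on this scale understates that of weak genes. On simulated data for this comparison (11241 genes), 2% of genes changed 1.2-fold were called, 56% of those changed 1.5-fold, 96% at 2-fold and 98% at 3-fold, with 8 unchanged genes called. The changed genes were drawn from all genes tested and the libraries were simulated independently, so these rates are not those of the zinc finger genes.

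Positions came from GENCODE 29, with the arms split at 26 Mb, and promoters from RefSeq. Voom (limma) used recovered reads scaled by the median ratio. The members, the cofactor list, the marker lists and the tests were chosen with earlier results of these data known. Named were all members that passed, the 6 highest levels, the extremes of each cluster, the 3 genes on each side of 1 FPKM, TRIM28, SETDB1 and every cofactor that passed. Genes under 1 FPKM other than ZNF30, ZNF285 and ZNF726, and ZNF468, were named after their values were seen. Alternatives changed the replicate term, pseudocount, filter, scaling, variance model, GC or length trend, libraries and cluster gap. The fits of all rows other than the planned one were added after seeing the data.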

Additional observations from a re-analysis of the deposited data

How the results depend on the processing

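Replicate numbers did not pair the libraries (correlations of same-numbered deviations 0.024, -0.557 and -0.683). With the number as a replicate block, 907 genes passed over all genes, 9 of the 127 zinc finger genes (8 higher, 1 lower) and 3 cofactors. The ZNF675 call, which held in every other alternative, ended there (adjusted p = 0.0806, limma). There were 4 cofactors when the GC trend was removed as well. Among the weak genes, the replicate block left 20 of 22 calls. A mean of at least 5 FPKM left 1075 genes and 2 zinc finger genes of the 38 tested, fewer genes by construction. Averaging WT replicates 1 and 2 left 1055 genes, 10 zinc finger genes and 3 cofactors. With WT replicate 3 and LenR replicate 2 given their own term, 3163 genes and 27 zinc finger genes passed, 21 of the latter higher and 6 lower. The cause of these shifts was not tested. Leaving out 1 library at a time gave 1006 to 1562 genes, 9 to 18 zinc finger genes, 18 to 22 weak genes and 2 to 6 cofactors, against 1707, 18, 22 and 7. The arm medians then ran from 0.0037 to 0.068 on 19p and from 0.038 to 0.087 on 19q. No named gene that passed changed direction, and 8 of the 18 zinc finger calls held in every alternative run. Among these, ZNF208, ZNF91, ZNF506, ZNF845 and ZNF155 had entered the set only through LenR. The clusters holding at least 5 genes numbered 9 with a gap of 250 kb and 7 with 1 Mb. Changes near 1.2-fold were mostly not called in simulated data. The genes changed there were drawn from all genes tested (median 651.5 reads), not from this set (180), so those rates need not hold for it.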

Other observations

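ZNF826P, a pseudogene inside the cluster of ZNF208 and ZNF91 whose symbol ends in a letter and so lies outside the rule, rose from 0.807, 1.52 and 1.72 FPKM to 7.24, 7.15 and 7.37 (log2 fold change 1.83, SE 0.14, adjusted p = 0.000198, limma), with no overlap between groups. It was named after its values were seen. ZNF324B, ZNF587B, ZNF780A and ZNF780B, the 4 coding genes of the chromosome with a letter after the number that averaged at least 1 FPKM, did not pass. ZNF324B came nearest, with 4.66, 4.65 and 4.52 FPKM in WT and 5.43, 5.50 and 5.17 in LenR (adjusted p = 0.0842, limma).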
